A study of Mus musculus with 44 samples.

Results

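The Myc, Max and Mnt network is a small set of DNA-binding proteins that pair with Max, or with its relative Mlx, and then sit on the same DNA sequence. The 9 genes described here were Myc, Mycn, Mycl, Max, Mlx, Mnt, Mxd1, Mxi1 and Mxd4, found by their RefSeq identifiers among the 17126 identifiers of the deposited mouse tables, of which 16975 carried a symbol. The genes were selected as a pathway at a time when results of these data were known, and the rule records no threshold, so the differences of the members between dark and light are given as a description, without a p-value of their own.

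Myc, Mycn and Mycl pair with Max on the E box, a short palindromic sequence in promoters, and recruit coactivators to genes of ribosome production and cell growth. Mnt and the Mxd proteins (Mxd1, Mxi1, Mxd4) compete for Max and for the same sites and recruit the Sin3 corepressor, while Mlx joins the glucose-sensing Mondo proteins and some of the Mxd proteins to the network. In the developing brain Mycn is known for driving the division of neural progenitors, and the Mxd genes for being expressed as cells leave the cycle.

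All samples came from mice, C57BL6J where the study names the strain. Visual cortex was taken from 8 mice of 6 to 7 weeks that had been kept in the dark for 1 week. Of these, 4 stayed in the dark and 4 were exposed to light for 1 h, and poly(A) tails of their mRNAs were counted and measured by PAL-seq v2, a method that reads the 3′ end of each mRNA and the length of its tail. Cortical cultures from pups of postnatal day 0 to 1, treated with ara-C against dividing cells, received after 14 days in vitro (DIV14) the growth factor BDNF or the receptor agonists glutamate plus glycine (glu/gly), each for 30 min, or after 10 days (DIV10) KCl for 10 or 30 min, and each set had 1 unstimulated control. A further set of cultures received, on day 5, a lentivirus that expressed GFP alone, or GFP with miR-1 or with miR-155, from the synapsin promoter, which is active in neurons, and was used at DIV14. Adult hippocampus, adult cortex (both from male mice) and hippocampi of E16 embryos (embryonic day 16) made up the tissues. Each culture and tissue was 1 library of each assay: RNA-seq, ribosome profiling (sequencing of the ribosome-protected fragments, RPFs) and TAIL-seq, a second tail method, or PAL-seq v2 for the hippocampi.

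The 42 libraries analysed of 44 held 448022 to 7689624 reads on genes in RNA-seq, 2812215 to 23212489 in ribosome profiling, 389654 to 1057812 tags in TAIL-seq and 86841 to 4812273 tags in PAL-seq v2. Levels are given as CPM, the counts of a library scaled by its total on genes. The summed level of 4 neuronal markers was 2331 to 2894 CPM in the RNA-seq of the cultures and 2020 to 3440 in the tissues, while 4 oligodendrocyte markers summed to 1131 in the adult hippocampus and to at most 15.07 in the cultures. In the RNA-seq of the cultures 4 astrocyte markers summed to 707.2 to 1520 CPM and 5 markers of dividing progenitors to 157.9 to 747.2. In the visual cortex, 6 of 6 activity-induced transcription and signalling genes were higher in light (for example Fos, Arc, Npas4 and Egr1, with Egr1 8.87-fold higher), and dark mouse 4 had the highest Fos (152.2 CPM) and Arc (241.6) of the dark mice.

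The promoters of the members are shown first, because the E box that the network binds is also found upstream of its own genes. RefSeq promoter entries (300 bases that span the start site, build GRCm38.p6) existed for 8 of the 9 members; Myc had none in the table used. The letters CACGTG, a palindrome and so the same on both strands, were found in 4 of the 8 promoters and in 7.15% of all 32851 promoters, and they are printed in capitals. The first base of the E box was 123 bases before the start site in Mnt (chr11:74830674-74830973, plus strand), 219 before it in Mxd4 (chr5:34187661-34187960, minus strand), 3 before it in Max (chr12:76962199-76962498, minus strand) and 40 before it in Mlx (chr11:101087040-101087339, plus strand). The promoter of Mycn (chr12:12941787-12942086, minus strand), the member with the largest difference between tissues, is printed beside them and held no such match.
Mnt: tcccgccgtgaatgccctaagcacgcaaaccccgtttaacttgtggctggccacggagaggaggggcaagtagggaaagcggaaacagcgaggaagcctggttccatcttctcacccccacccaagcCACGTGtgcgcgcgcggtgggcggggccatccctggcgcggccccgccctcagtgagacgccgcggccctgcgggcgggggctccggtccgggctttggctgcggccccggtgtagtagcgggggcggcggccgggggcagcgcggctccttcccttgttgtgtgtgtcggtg
Mxd4: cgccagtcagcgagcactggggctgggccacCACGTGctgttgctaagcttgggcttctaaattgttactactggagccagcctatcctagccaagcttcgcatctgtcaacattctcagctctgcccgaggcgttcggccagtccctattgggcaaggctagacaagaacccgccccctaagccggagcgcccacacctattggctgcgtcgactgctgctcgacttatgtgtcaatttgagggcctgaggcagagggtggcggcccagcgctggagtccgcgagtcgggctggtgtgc
Max: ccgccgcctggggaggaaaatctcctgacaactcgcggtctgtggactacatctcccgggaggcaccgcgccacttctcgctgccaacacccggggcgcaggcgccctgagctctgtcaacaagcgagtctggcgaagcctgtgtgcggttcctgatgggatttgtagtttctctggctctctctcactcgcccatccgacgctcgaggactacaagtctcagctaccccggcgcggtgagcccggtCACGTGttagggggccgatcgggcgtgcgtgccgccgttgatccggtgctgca
Mlx: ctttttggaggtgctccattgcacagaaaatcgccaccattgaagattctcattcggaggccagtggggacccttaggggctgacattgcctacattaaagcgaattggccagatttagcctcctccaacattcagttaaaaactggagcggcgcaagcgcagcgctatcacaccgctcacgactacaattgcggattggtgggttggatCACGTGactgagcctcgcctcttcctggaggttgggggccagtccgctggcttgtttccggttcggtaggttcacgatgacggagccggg
Mycn: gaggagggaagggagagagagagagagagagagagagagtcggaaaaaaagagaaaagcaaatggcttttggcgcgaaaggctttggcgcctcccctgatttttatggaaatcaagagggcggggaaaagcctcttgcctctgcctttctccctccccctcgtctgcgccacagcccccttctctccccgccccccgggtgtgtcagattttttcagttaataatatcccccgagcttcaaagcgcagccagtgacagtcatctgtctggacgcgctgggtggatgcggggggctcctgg
The cyclic AMP response element TGACGTCA (in 1.79% of all promoters) and the CArG box (in 1.63%), sequences known from promoters of activity-induced genes, were searched on both strands and matched in none of the 8, which says only that these letters are not in these windows. The GC content of the 8 promoters ran from 55% to 76.7%, against a median of 52.7% over all promoters. Mxi1 has 3 promoter entries in the table, and the one at its transcript's start was used.

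In the visual cortex, Mnt, the broadly expressed repressor that pairs with Max, was the member whose mRNA differed between dark and light. Mnt (NM_010813) lies at chr11:74830924-74845725 on the plus strand and has 6 exons. Its level was 45.8, 47.4, 54.7 and 43.5 CPM in dark mice 1 to 4, from 67, 228, 70 and 54 tags. It was 59.2, 76.6, 90.1 and 85.0 CPM in light mice 1 to 4, from 73, 120, 158 and 143 tags. The lowest light mouse stood above the highest dark mouse, so the groups did not overlap. The share of all genes whose levels did not overlap was not counted. The mean rose from 47.8 ± 4.82 (SD, n = 4) to 77.7 ± 13.6 (SD, n = 4), a log2 difference of 0.74 ± 0.15 (SE), or 1.67-fold. Of the 8 members that passed the filter on low counts, 1 (Mnt) was called higher at an adjusted p under 0.05 in edgeR's quasi-likelihood test, against 1.21% of the 9554 genes tested, and nothing is read from that count because the members were selected with such results known. In bulk tissue, fewer cells of a type and less RNA per cell cannot be told apart.

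**Figure D1:**
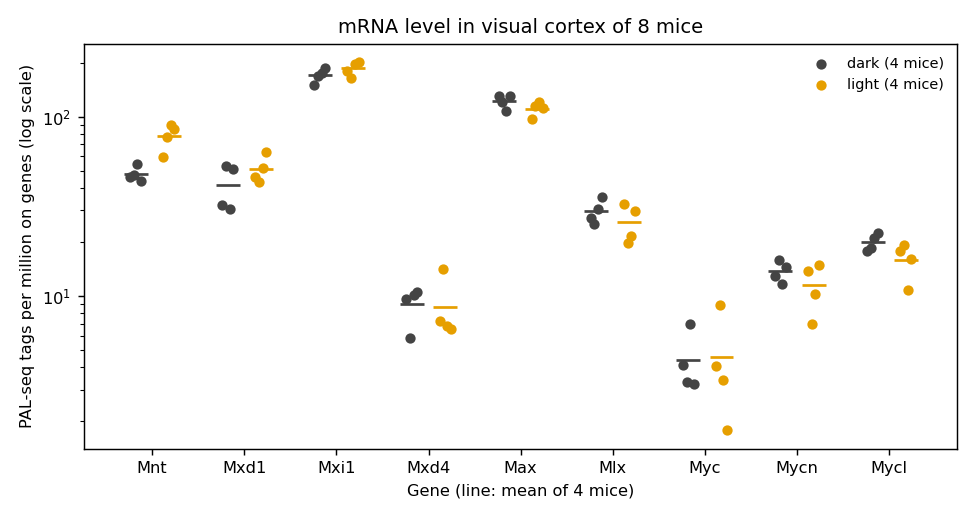
Level of each member in the visual cortex in tags (CPM, vertical axis, log scale), with 1 point per mouse, 4 mice in the dark and 4 after 1 h of light, and a line at each group's mean. Mnt is the member whose light points, 59.2 to 90.1, all lie above its dark points, 43.5 to 54.7.

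The other repressors that pair with Max overlapped between dark and light. Mxd1, a repressor linked to the exit from the cell cycle, was at 32.1, 53.2, 30.5 and 50.7 CPM in the dark and at 46.2, 43.4, 51.9 and 63.6 in light, a log2 difference of 0.29 ± 0.18 (SE). Mxi1, the most abundant member by tags, was at 150.5, 167.9, 174.1 and 186.8 in the dark and at 180.0, 164.7, 197.3 and 200.3 in light, a difference of 0.16 ± 0.10. For Mxi1, light mice 1 and 2 stood within the dark range and light mice 3 and 4 above it. Mxd4 was at 9.58, 5.82, 10.2 and 10.5 in the dark and at 7.30, 14.1, 6.84 and 6.54 in light, with 9 to 28 tags a mouse. For Mxd4, light mouse 2 stood above all others and the remaining light mice lay within the dark range. Its log2 difference was 0.06 with all mice, -0.17 without dark mouse 2 and -0.26 without light mouse 2, so no direction is given for it.

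The shared partners also overlapped between the groups. Max, without which Myc does not bind DNA, was at 129.3, 120.7, 107.7 and 130.4 CPM in the dark and at 97.3, 114.9, 119.8 and 111.1 in light, a log2 difference of -0.11 ± 0.11 (SE). Mlx was at 27.4, 25.1, 30.5 and 35.4 in the dark and at 32.4, 19.8, 21.7 and 29.7 in light, a difference of -0.15 ± 0.21. The 3 Myc genes had few tags. Mycn ran from 11.7 to 15.8 in the dark and from 7.02 to 14.9 in light, and Mycl from 17.8 to 22.6 and from 10.8 to 19.2. Their log2 differences were -0.27 ± 0.29 and -0.29 ± 0.24. Myc itself, at 3.22 to 7.03 in the dark and 1.78 to 8.94 in light from 3 to 16 tags a mouse, did not pass the filter. The median over the 8 members tested was -0.02, and over all genes -0.01, on the log2 scale.

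Markers of other cells moved to some extent between the same mice. The summed level of 4 oligodendrocyte markers was 589.4 to 942.5 CPM in the dark and 380.5 to 707.7 in light, and that of 4 astrocyte markers 381.7 to 495.2 and 273.9 to 420.7. Both ranges overlapped between dark and light. Neuronal markers, at 6774 to 7786 and 7025 to 8070, microglial markers, at 300.9 to 370.8 and 304.8 to 342.3, and 5 markers of dividing progenitors, at 93.3 to 129.3 and 118.6 to 137.9, also overlapped between the groups. The 3 endothelial markers summed to at most 21.74, with Flt1 at 0 in each mouse. Among the progenitor markers Nes, Top2a or Mki67 was at 0 in 6 of the 8 mice, and no marker of neurons, astrocytes, oligodendrocytes or microglia was at 0 in any. The part of these cells in the Mnt difference was not tested.

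The tail of Mnt mRNA was also longer after light. Its mean length was 92.3, 88.8, 79.2 and 81.4 nt in dark mice 1 to 4 and 102.3, 120.5, 123.5 and 99.8 nt in light mice 1 to 4. Again the groups did not overlap, with the shortest light mean above the longest dark mean. The group means were 85.4 ± 6.14 nt (SD, n = 4) in the dark and 111.5 ± 12.2 nt (SD, n = 4) in light, a difference of 26.10 ± 6.68 nt (SE), where the median over all 4321 genes tested was 3.75 nt. The mice themselves differed in tail length, with library medians of 92.4, 90.7, 77.5 and 80.0 nt in the dark and 83.3, 94.1, 97.5 and 81.7 nt in light. Relative to the median of the same mouse, Mnt tails ran from -1.84 to 1.67 nt in the dark and from 18.1 to 26.4 nt in light, so that Mnt stood close to the median of its library in the dark and above it in light. On that scale the difference was 22.09 ± 2.70 nt (SE). By limma, 1 of the 3 members with at least 50 tags in each mouse was called longer (Mnt), against 0.231% of all genes tested, and nothing is read from that count either. The Mnt call did not hold in all settings. It was lost without dark mouse 2, 3 or 4 or light mouse 2 or 3 (the difference ran from 22.1 to 30.0 nt over the 8 fits), with genes of at least 20 tags, on the log2 scale and with weights by tags, and it was kept relative to each mouse's median.

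**Figure D2:**
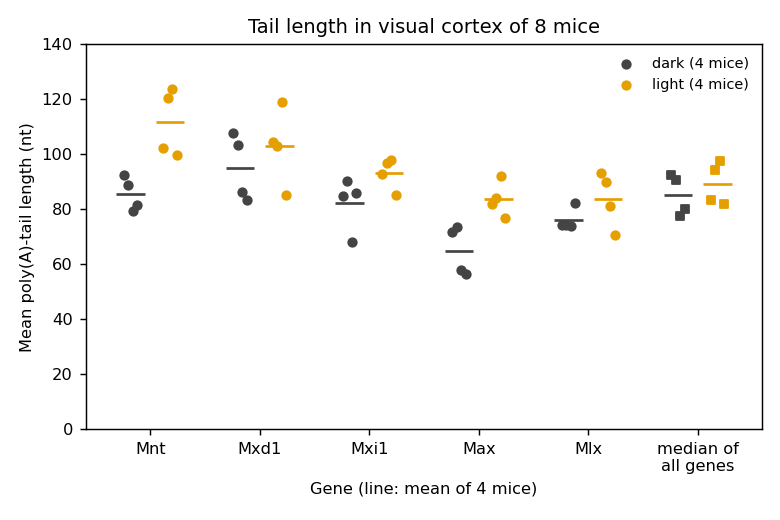
Mean tail length in nt (vertical axis) of Mnt, Mxd1, Mxi1, Max and Mlx in the visual cortex, with 1 point per mouse, 4 dark and 4 light, a line at each group's mean, and squares for the median over all genes tested in each mouse. The light points of Mnt, 99.8 to 123.5 nt, and of Max, 76.6 to 91.9 nt, lie above all their dark points, while the other genes and the library medians overlap.

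Max, the partner of Mnt, was the second member whose tails did not overlap between the groups. The share of all genes tested whose tails did not overlap was not counted, so nothing is read from the lack of overlap of either gene. Max tails were 71.8, 73.3, 57.9 and 56.5 nt in the dark and 81.8, 83.9, 91.9 and 76.6 nt in light, with means of 64.9 ± 8.92 and 83.6 ± 6.37 nt (SD, n = 4). The difference was 18.67 nt, or 14.66 ± 2.62 nt (SE) relative to the mice's medians, and it was not called at an adjusted p under 0.05. Max tails remained below the median of their library in every mouse, by 23.5 to 17.3 nt in the dark and by 10.3 to 1.52 nt in light. Mxi1 tails were 84.8, 90.1, 68.1 and 85.9 nt in the dark and 92.7, 96.8, 97.9 and 85.0 nt in light, and these overlapped. The tails of the remaining 6 members rested on fewer than 50 tags in at least 1 mouse and were not tested. Among them Mxd1 had means of 95.1 ± 12.1 and 102.9 ± 13.9 nt and Mlx of 76.2 ± 4.01 and 83.7 ± 10.2 nt (SD, n = 4), each with overlap.

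Around the members, 63 further genes of the pathway in 6 lists were followed, of which 51 were tested in light and 1 was called. That gene was Klf10, a transcriptional repressor in the list of Mondo targets. Its level was 9.58, 19.1, 19.5 and 46.7 CPM in dark mice 1 to 4 and 63.2, 47.9, 54.8 and 48.7 in light mice 1 to 4. The light values stood above all dark values, of which dark mouse 4 was the closest. The log2 difference was 1.27 ± 0.27 (SE), or 2.41-fold, with an adjusted p of 0.00935 in edgeR's quasi-likelihood test with Benjamini-Hochberg adjustment. The lists, as the members, were chosen with earlier results of these data known, so the call of Klf10 is a description and nothing is read from it. It was not called by DESeq2 (adjusted p = 0.242), nor by edgeR without dark mouse 2 (adjusted p = 0.0504) or without light mouse 1 (adjusted p = 0.0553). None of the 12 members of the Sin3 corepressor, 9 Myc cofactors, 7 genes of Myc turnover, 18 Myc target genes and 2 network relatives tested was called by edgeR or by DESeq2, and 4 of them had an unadjusted p under 0.05 in edgeR. One of the Sin3 corepressor genes, Sap30, was called without light mouse 4 (adjusted p = 0.0312 by edgeR's quasi-likelihood test) and not with all mice (adjusted p = 0.164). Of 20 list genes tested for tail length, limma called 0 at the adjusted threshold and 0 had an unadjusted p under 0.05.

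In the KCl cultures, ribosomes on the mRNAs of Myc and Mycn and on that of Mxd4 differed from the control in opposite directions. These are single libraries, so each ratio is given with an exact 95% interval that covers the counting of reads only and not the spread between cultures, and both KCl times share 1 control. Mycn had 66.5 CPM in RPFs in the control, 103.9 after 10 min and 84.3 after 30 min of KCl. Myc had 32.3, 51.5 and 41.0. Both genes were therefore highest at 10 min and stood between that value and the control at 30 min. The ratio to the control was 1.56 (1.39 to 1.75) at 10 min and 1.27 (1.09 to 1.47) at 30 min for Mycn, and 1.59 (1.35 to 1.88) and 1.27 (1.02 to 1.57) for Myc. Mycl, the third Myc gene, did not follow, with 15.6, 14.7 and 9.84 CPM in RPFs, 1.59-fold lower at 30 min (1.07 to 2.43).

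Mxd4, a repressor that pairs with Max, had 32.2 CPM in RPFs in the control, 17.4 after 10 min and 17.7 after 30 min. It was 1.85-fold lower (1.47 to 2.35) at 10 min and 1.82-fold lower (1.36 to 2.47) at 30 min, from 305, 96 and 54 RPFs. Max was lower by a smaller factor, at 31.3, 23.9 and 23.0 CPM in RPFs, 1.31-fold lower (1.06 to 1.62) and 1.36-fold lower (1.05 to 1.80). Mnt went the other way with 39.6, 48.2 and 50.8, a ratio of 1.22 (1.04 to 1.43) and 1.29 (1.06 to 1.55). Many genes differed by as much, since 24.4% and 21.2% of all genes had a lower ratio than Max at 10 and 30 min. For Mnt it was 81.6% and 83.9%, so no response to KCl is read from either gene. At 30 min it was 82.8% for Myc, 82.6% for Mycn and 13.5% for Mycl, so none is read from these 30 min ratios either. At 10 min it was 96% for Myc and 95.5% for Mycn. For Mxd4 it was 8.12% at 10 min and 8.33% at 30 min. Mlx (39.1, 39.7 and 42.0), Mxi1 (13.6, 10.9 and 12.8) and Mxd1 (4.85, 4.71 and 6.56) had intervals of both ratios that included 1. Past 1.5-fold with at least 20 RPFs over both libraries, 2 of the 9 members were higher and 1 was lower at 10 min, where 5.69% of all 12661 genes were higher and 15.8% lower. At 30 min 0 were higher and 2 lower, where 6.73% of all genes were higher and 16% lower. Scaled by the authors' RPM, whose total also counts reads outside the listed genes, the 10 min ratios of Myc and Mycn were 1.40 and 1.38 and no longer past 1.5-fold, with the median log2 ratio of all genes moving from -0.05 to -0.23. Markers of other cells also moved between these 3 cultures. In RPFs the markers of dividing progenitors summed to 870.7 CPM in the control, 778.4 at 10 min and 665.9 at 30 min, and those of astrocytes to 1987, 2365 and 2494, with no marker at 0. Their part in these differences was not tested.

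**Figure D3:**
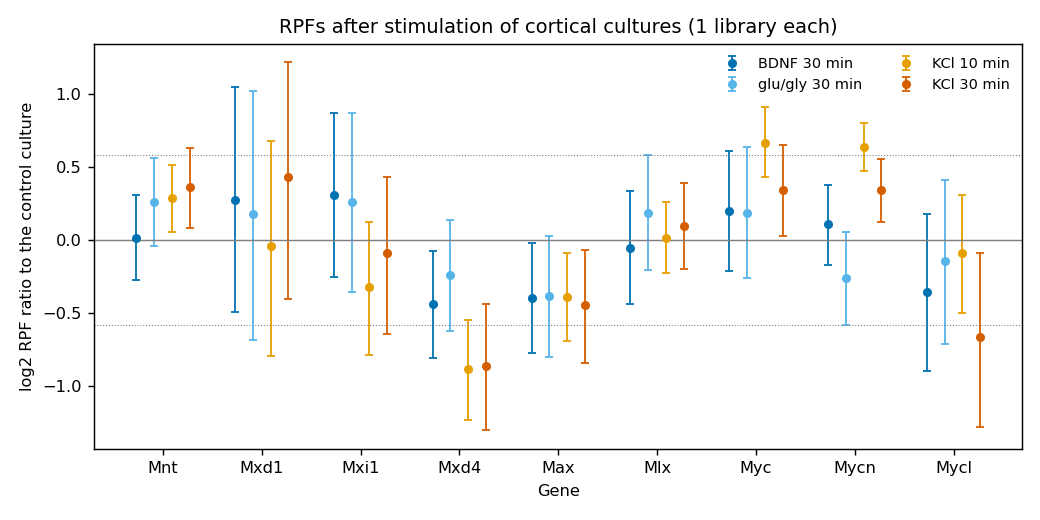
Ratio of RPFs (CPM) in each stimulated culture to its control (vertical axis, log2 scale), with 1 point per member and stimulus and bars for the exact 95% counting interval. Myc and Mycn lie above 0 and Mxd4 and Max below it at both times of KCl, and dotted lines mark 1.5-fold, past which no point of BDNF or glu/gly lies.

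After BDNF and after glu/gly, 0 of the 9 members were past 1.5-fold in RPFs, where 2.92% of 11595 genes were higher and 9.92% lower after BDNF, and 3.82% of 11454 genes higher and 10.2% lower after glu/gly. The 2 stimuli share 1 control culture. Mxd4 was at 37.8 CPM in RPFs in that control, 27.9 after BDNF and 32.0 after glu/gly, with ratios of 0.737 (0.570 to 0.948) and 0.846 (0.647 to 1.10). Max was at 35.3, 26.8 and 27.0, with ratios of 0.759 (0.583 to 0.984) and 0.766 (0.574 to 1.02). Mnt was at 48.9, 49.5 and 58.7, and Myc at 23.1, 26.5 and 26.3, all with intervals that included 1. Among these 4 genes, the intervals of Mxd4 and Max after BDNF were the ones that left out 1. In RPFs astrocyte markers summed to 1631 CPM in the control, 1260 after BDNF and 1556 after glu/gly, and markers of dividing progenitors to 389.4, 286.1 and 365.9, and their part in these values was not tested either.

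RNA-seq of the same cultures was too shallow to follow most members. With at least 20 reads over both libraries, 5 members could be compared after BDNF and 5 after glu/gly, 6 after 10 min and 7 after 30 min of KCl, and 0 of them were past 1.5-fold, where 17.6%, 21.5%, 15.7% and 29.2% of all genes were, in either direction. For Mycn the RNA ratio was 0.921 (0.541 to 1.52) at 10 min and 1.01 (0.649 to 1.55) at 30 min of KCl, for Mxd4 1.02 (0.657 to 1.54) and 1.03 (0.708 to 1.48). For Myc, from 10, 6 and 9 reads, it was 1.35 (0.402 to 4.09) and 1.33 (0.480 to 3.66). The counting intervals of the RNA-seq and RPF ratios overlapped for Myc and Mycn at both times, though narrowly for Mycn at 10 min. For Mxd4 they overlapped narrowly at both times. Such overlap is no test of whether RNA and RPFs changed alike. Translational efficiency (TE), the log2 ratio of RPM in RPFs to RPM in RNA-seq, was past the cutoff of 10 RPM in both libraries for Mxd4 at 10 min and fell by 1.26 (0.59 to 1.93), where the median over 4734 genes was -0.41. Mycn lay under that cutoff, with a TE change of 0.41 (-0.31 to 1.13) at 10 min. At 30 min its change was 0.78 (0.15 to 1.41), where the median over 3535 genes was 0.32. TAIL-seq tags of the same cultures gave a second count of the mRNAs. Past 1.5-fold by tags were 2 of 9 members after BDNF, 1 of 8 after glu/gly, 3 of 7 after 10 min and 0 of 7 after 30 min of KCl, where 13.7%, 13.8%, 17% and 19% of all genes were, in either direction. Mnt had 78 tags after BDNF against 48 in the control, a ratio of 1.60 (1.10 to 2.35), while its ratio was 0.951 (0.597 to 1.5) after glu/gly, 0.789 (0.426 to 1.44) after 10 min and 0.667 (0.370 to 1.19) after 30 min of KCl. The ratio of Mnt was thus above 1 after BDNF and below 1, with intervals that included 1, after the other stimuli. Mycn had 28 tags against 18 at 10 min of KCl, a ratio of 1.64 (0.874 to 3.14) that stood near its RPF ratio, with an interval that included 1. In RNA-seq Mnt, with 3 reads in the control and 3 after BDNF, allowed no fold.

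Among the 21 Myc target genes, genes of ribosome production, nucleotide synthesis and growth, 2 were at least 1.5-fold higher and 1 lower in RPFs after 10 min of KCl, and 3 were higher and 2 lower after 30 min. Their median log2 ratio was 0.15 and 0.12, against -0.05 and -0.03 for all genes. Odc1, the rate-limiting enzyme of polyamine synthesis, was the lowest, with 64 RPFs against 453 and a 4.12-fold lower level at 10 min (3.16 to 5.44). The Sin3 corepressor had 1 higher and 2 lower of 11 genes at 10 min and 0 and 1 at 30 min, the Myc cofactors 0 and 1 of 10 at each time, and genes of Myc turnover 1 and 2, then 2 and 1, of 10. Of all genes, 5.69% were higher and 15.8% lower at 10 min, and 6.73% and 16% at 30 min. The counts of the 3 latter lists, at most 2 genes in a direction, stood near these shares. Those of the Myc target genes, at most 3 of 21 in a direction, differed from these shares by few genes. Nothing is read from the counts of any of these lists. For comparison, the activity genes Npas4 and Fosb were 53.7-fold (38.2 to 77.9) and 52.7-fold (32.8 to 90.1) higher at 30 min, and Nr4a1 3.49-fold (2.27 to 5.47) at 10 min. After BDNF the Myc targets had 0 of 21 past 1.5-fold in RPFs, where 2.92% of all genes were higher and 9.92% lower. After glu/gly 0 of 21 were higher and 4 lower, where 3.82% of all genes were higher and 10.2% lower.

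The cultures that expressed a microRNA were also compared. Sites of miR-155, an immune microRNA, were found in the 3′ UTRs of 4 members. The share of all 3′ UTRs with such a site was not counted, so nothing is read from the number of members with one. The mature miR-155-5p (chr16:84714143-84714165, plus strand, RefSeq, GRCm38.p6) is shown with its seed, bases 2 to 8, in capitals, and each site is shown with the bases that match the seed, and an A opposite base 1 where the site has one, in capitals. The site of Mxd1 is an 8mer at base 2223 of its 3827-base 3′ UTR (chr6:86648641-86648663, minus strand), that of Mxi1 a 7mer-A1 at base 424 of 1557 (chr19:53372145-53372167, plus strand), that of Mlx a 7mer-m8 at base 655 of 1042 (chr11:101091805-101091827, plus strand) and that of Mycl a 7mer-m8 at base 537 of 1970 (chr4:123001037-123001059, plus strand). Each position is the first base of the 6-base core of the match. In the 8mer and 7mer-m8 sites it is the base after the first capital.
miR-155-5p: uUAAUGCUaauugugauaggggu
Mxd1 site: caggtatgaaccccAGCATTAAg
Mxi1 site: aggcaggataatcagGCATTAAt
Mlx site: ccaaaggcaaaggcAGCATTAca
Mycl site: cttgatcagcatggAGCATTAcc
None of the 4 was past 1.5-fold lower in RNA-seq of the miR-155 culture against the GFP culture. Mlx was at 43.1 CPM against 49.1, a ratio of 0.878 (0.546 to 1.47). Mxi1 was at 35.0 against 22.3, a ratio of 1.57 (0.808 to 3.41), and Mycl at 53.5 against 33.5, a ratio of 1.60 (0.929 to 2.95). Mxd1, which holds the longest site, had 16 reads against 1, a ratio of 3.40 (0.527 to 142). All 4 intervals included 1, so neither a rise nor a fall was detectable at this depth. Of the 6 members with at least 20 reads, 2 were past 1.5-fold (Mxi1 and Mycl, both higher), where 21.8% of all genes were in either direction. By TAIL-seq tags 2 of 6 members were past 1.5-fold in the miR-155 culture and 4 of 6 in the miR-1 culture, where 20.9% and 23.1% of all genes were in either direction. Max had 68 tags in the miR-155 culture and 47 in the miR-1 culture against 19 in the GFP culture, ratios of 2.91 (1.73 to 5.12) and 2.16 (1.24 to 3.89), so that it was higher with both microRNAs against the same control. The level of Max in that control was 48.8 CPM by tags, where it was 92.6 to 122.3 in the stimulated cultures and their controls. Mnt in the miR-155 culture had 33 against 11 tags, a ratio of 2.44 (1.20 to 5.34), and Mycl 33 against 30, a ratio of 0.893 (0.528 to 1.52), on the other side of 1 from its RNA-seq. In the miR-1 culture 1 of 6 members was past 1.5-fold, where 21.5% of all genes were. It was Mxd4, at 40.3 CPM against 73.7, 1.83-fold lower (1.12 to 2.99). Both microRNA cultures share the GFP control, whose RNA-seq held 0 reads of Myc and 1 of Mnt. In RNA-seq the markers of dividing progenitors summed to 310.3 CPM in the GFP culture (Mki67 at 0), 157.9 with miR-1 and 255.3 with miR-155. Those of astrocytes summed to 1047, 856.8 and 707.2. Of the activity genes with enough reads, 4 of 4 were at least 1.5-fold higher with miR-1 and 2 of 5 with miR-155. The part of these differences in the values of the members was not tested.

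Between the tissues, the 3 Myc genes were the members that differed most in RNA. Mycn, at chr12:12936093-12941836 on the minus strand, was at 141.5 CPM in the RNA-seq of the embryonic hippocampus, at 6.18 in the adult hippocampus and at 4.68 in the adult cortex. In RPFs it was at 242.8, 11.4 and 15.3. The embryonic level was 22.9-fold the adult hippocampal level in RNA (17.0 to 31.6) and 21.4-fold in RPFs (18.8 to 24.4), so both readouts gave a ratio of the same size. Myc, at chr15:61985341-61990361 on the plus strand, was at 21.7, 3.98 and 2.34 CPM in RNA and at 23.2, 4.29 and 5.20 in RPFs, 5.45-fold (3.66 to 8.39) and 5.41-fold (4.33 to 6.81) higher in the embryonic than in the adult hippocampus. Mycl, at chr4:122995931-123002485 on the plus strand, was at 133.4, 29.5 and 9.36 in RNA and at 99.0, 37.2 and 6.80 in RPFs. Its ratio was 4.52 (3.90 to 5.26) in RNA and 2.66 (2.45 to 2.89) in RPFs, intervals that did not overlap, and in RPFs Mlx and Mxd1 differed by a larger factor than Mycl.

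The repressors that pair with Max were closer to even. Mnt was at 43.1 CPM in the embryonic and 40.3 in the adult hippocampus in RNA, and at 54.1 and 48.6 in RPFs, with ratios of 1.07 (0.911 to 1.26) and 1.11 (1.02 to 1.21). Mxd4 was at 62.8 and 58.9 in RNA and at 59.6 and 60.7 in RPFs, with ratios of 1.07 (0.934 to 1.22) and 0.981 (0.909 to 1.06). Mxi1 was 1.43-fold (1.24 to 1.66) higher in the embryo in RNA and 2.06-fold (1.84 to 2.31) higher in RPFs. Mxd1 was the exception, with 11.4 and 9.07 CPM in RNA but 8.06 and 24.7 in RPFs, so that its RPFs were 3.07-fold lower in the embryo (2.59 to 3.64) while its RNA ratio was 1.26 (0.907 to 1.76).

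The partners Max and Mlx went opposite ways in RPFs. Max was at 33.0 CPM in the embryonic and 27.1 in the adult hippocampus in RNA, a ratio of 1.22 (1.01 to 1.48), and at 29.8 and 46.8 in RPFs, 1.57-fold lower in the embryo (1.42 to 1.73). Mlx was at 34.1 and 21.0 in RNA, a ratio of 1.62 (1.32 to 1.99), and at 83.2 and 22.7 in RPFs, a ratio of 3.66 (3.32 to 4.05). Past 1.5-fold, 4 members were higher and 0 lower in RNA, where 38.2% of 12884 genes were higher and 29.5% lower, and 5 were higher and 2 lower in RPFs, where 43.2% of 11168 genes were higher and 31.6% lower. The median log2 ratio over all genes was 0.23 in RNA and 0.31 in RPFs, and divided by these medians the 2 readouts together gave 8 higher and 2 lower in place of 9 and 2.

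**Figure D4:**
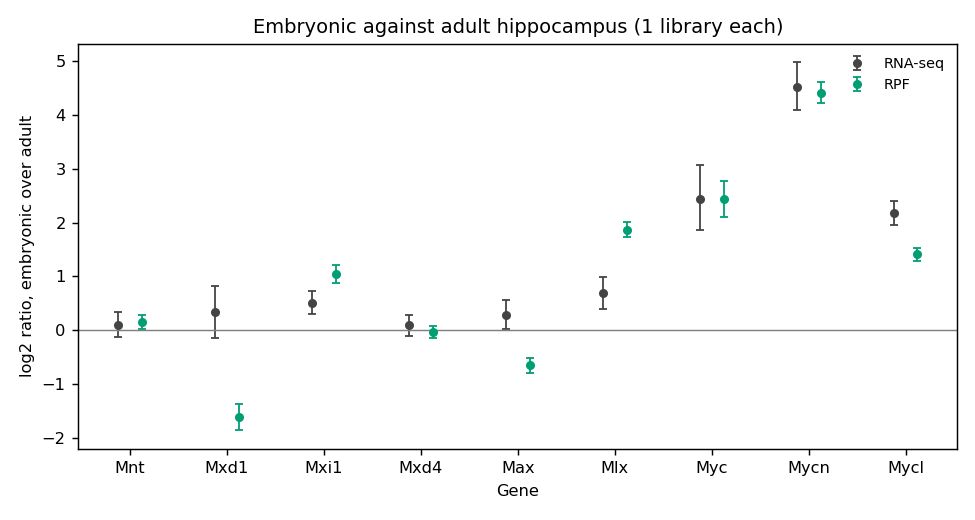
Ratio of the embryonic to the adult hippocampus (vertical axis, log2 scale) for each member, in RNA-seq and in RPFs, 1 library each, with bars for the exact 95% counting interval. Mycn stands highest in both readouts, Mlx is higher in RPFs than in RNA, and Max and Mxd1 lie above 0 in RNA and below it in RPFs.

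Compared per length of coding region (CPM per kb), the leading member changed with the tissue. In the embryonic hippocampus Mycl (126.2) led in RNA, ahead of Mxd4 (108.3) and Mycn (105.7), which stood close together. In the adult hippocampus it was Mxd4 (101.6), followed by Max (62.5) and Mxi1 (51.1), and in the adult cortex Mxd4 (77.7), Mxi1 (52.4) and Max (32.4). In RPFs per kb, Mycn led in the embryo at 181.4, and Max (108.1) and Mxd4 (104.7) stood close together in the adult hippocampus. Myc was the lowest member in RNA per kb in all 3 tissues, at 16.5, 3.03 and 1.78.

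Cell types differed strongly between these tissues. The summed level of 5 markers of dividing progenitors was 2198 CPM in RNA of the embryonic hippocampus, 61.67 in the adult hippocampus and 53.24 in the adult cortex, with none at 0. Oligodendrocyte markers were at 14.04 in the embryonic and 1131 in the adult hippocampus, with Mog at 0 in the embryo, astrocyte markers at 286.5 and 1062, microglial markers at 52.67 and 258.8, endothelial markers at 71.79 and 27.88, and neuronal markers at 2020 and 3025. Their part in the differences of the members was not tested. The ribosome profiling tables of both hippocampi also leave genes out, since 653 genes with at least 100 RPFs in the adult table were not listed in the embryonic one and 316 the other way round, so only genes listed in both were compared, and the intervals there cover the counting of reads only.

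Around the members, the Myc target genes and the Myc cofactors stood above the median of all genes in the embryo. Of 21 Myc target genes, 16 were at least 1.5-fold higher in RNA and 1 lower, and 17 higher and 0 lower in RPFs, with medians of 1.26 and 1.95 on the log2 scale, against 0.23 and 0.31 for all genes. Of 10 Myc cofactors 8 were higher and 0 lower in RNA and 8 and 1 in RPFs. Of the Sin3 corepressor 4 of 11 were higher in RNA and 7 of 10 in RPFs, with none lower, and genes of Myc turnover had 4 higher and 3 lower of 9 in RNA. Of all genes, 38.2% were higher and 29.5% lower in RNA, and 43.2% and 31.6% in RPFs, so that the RNA counts of the Sin3 corepressor and of Myc turnover lie near the share of all genes. Among the latter Aurka, a mitotic kinase that also stabilises Mycn, had 324 reads in the embryonic and 3 in the adult hippocampus, a ratio of 102 (34.7 to 498). Mxd3, the Mxd gene that is no member here, had 1144 RPFs against 1, a ratio of 1070 (191 to 42200). Genes with 1 to 5 reads made up 4.99% of those listed in the adult and 3.15% in the embryonic hippocampal RPF table, against 9.97% to 15% in the cultures, so a count of 1 may be less certain there than its interval says. The activity gene Egr1 went the other way, 71.8-fold lower in the embryo in RNA (44.0 to 126), as did Fosb, with 0 reads against 73, which is 25.7-fold lower if the 0 is set to a floor of 3 reads and has an exact interval that starts at 20.4-fold, and in RPFs Fos, with 1 against 980.

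TE showed which members were loaded with ribosomes out of proportion to their RNA. Of 25 values past the cutoff of 10 RPM in RNA-seq over 10 libraries, 10 were above the median TE of their library. Between the hippocampi, TE of Mlx was 2.07 in the embryo and 1.17 in the adult, a difference of 0.90 (0.58 to 1.22), although the adult value lay under the cutoff. Mycl went from 1.40 (1.18 to 1.62) in the adult to 0.35 (0.25 to 0.46) in the embryo, past the cutoff in both. Max was at 1.85 (1.63 to 2.08) in the adult, under the cutoff, and at 0.64 (0.43 to 0.85) in the embryo, and Mxd1, under the cutoff in both, at 2.51 (2.14 to 2.90) and 0.28 (-0.10 to 0.66). The median change over 5431 genes from adult to embryo was -0.22. Mycn in the embryo, at 1.56 (1.47 to 1.66), had a higher TE than 87.9% of genes. Mxi1 was below the median of its library in all 10 libraries, past the cutoff in the 3 tissues.

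The RNA-seq level of Mnt differed between kinds of library, while its levels by tags and by RPFs were closer to even. Its RPFs were even over all 10 libraries, from 39.6 to 58.7 CPM. Its RNA-seq level was 2.23 to 13.7 CPM in the cultures and 9.36 in the adult cortex, from 1 to 16 reads, against 40.3 and 43.1 in the hippocampi, from 293 and 331 reads. By TAIL-seq tags Mnt was at 28.2 to 73.7 CPM in the cultures, with 46.0 in the DIV14 control and 46.3 in the DIV10 control, and at 46.7 in the adult cortex. By PAL-seq v2 it was at 43.5 to 54.7 in the dark visual cortex and at 27.0 in the adult hippocampus, from 6 tags. The hippocampal tag level rests on these 6 tags, and the cultures and the adult cortex were read by the other tail method. By tags, Mnt in the hippocampus therefore cannot be ranked against the cortex and the cultures. The TE values that follow use the RNA-seq level alone. Its TE was accordingly 1.33 (1.15 to 1.53) and 1.11 (0.94 to 1.29) in the adult and embryonic hippocampus, 3.74 (3.02 to 4.56) in the adult cortex and 3.55 to 6.24 in the cultures, all of the latter under the cutoff. RNA of both hippocampi was selected by poly(A), while that of the adult cortex and of a part of the cultures was depleted of ribosomal RNA, so the tissue and the type of library cannot be told apart for Mnt.

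Tails in the cultures were longer for Mxi1 and shorter for Max than for most genes. With at least 50 tags, Max tails were 98.9 nt in the DIV14 control, 90.8 after BDNF, 82.5 after glu/gly, 83.3 in the DIV10 control, 75.9 after 10 min and 89.4 after 30 min of KCl, and 78.7 in the miR-155 culture. The library medians were 102.1 to 111.8 nt, and 1.20% to 15% of genes had a shorter tail than Max. The same position below the median was seen for Max in the visual cortex. Mxi1 tails were 128.4, 119.7 and 121.9 nt in the DIV14 control, after BDNF and after glu/gly, 124.4 nt in the DIV10 control and 109.2 nt after 30 min of KCl. The last difference, -15.24 nt, was lower than that of all but 0.959% of 2815 genes, whose median was 2.22 nt. In the adult cortex Mxi1 tails were 118.6 nt, longer than those of 95.2% of genes. The long tail of Mxi1 was not seen everywhere. After 30 min of KCl it was longer than that of 59.4% of genes. In the visual cortex Mxi1 stood at -9.43 to 5.84 nt from the median of the same mouse in the dark and at 0.47 to 9.34 nt in light. Of 8 differences between a stimulated culture and its control, 7 were below the median of all genes, over 3 members and with shared controls, and without replicates none of them has an error between cultures. Mnt had 50 tags only after BDNF, with a tail of 125.1 nt against a library median of 111.0 nt. In the hippocampi no member had over 34 tags, and no tail is given for them.

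The genes whose RNA-seq level followed a member most closely are given as a description over the 12 RNA-seq libraries, which differ in depth, tissue and library type, among 6595 genes with at least 10 reads in each. Mlx was nearest to Eef1e1 (Pearson r = 0.976), Tiprl (0.958) and Lrrc40 (0.958), and Mycl to Lamb1 (0.946), Anp32a (0.937) and Eif3a (0.933). Mxi1 was nearest to Tbc1d22b (0.924), Cdk12 (0.909) and Kat6b (0.897). Mxd4 had the weakest neighbours, Upf3a (0.815), Sri (0.815) and Slc25a1 (0.787). The other 5 members fell under 10 reads in at least 1 library.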

How the data were processed

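The authors aligned the reads to mm10 with STAR (2.4.2 in the submitters' processing notes) and deposited, per gene, raw counts of RNA-seq reads and RPFs over the coding region without its first 50 nt, their RPM (scaled to a total that also counts reads outside the listed genes), a log2 TE table, tag counts with the mean tail length in nt of each gene in TAIL-seq and in the visual cortex, and tag counts with a value taken as the median tail, which is not comparable with a mean, in the hippocampi. The deposited log2 TE served as an alternative only, and 2 RPF libraries whose titles and files name different cultures were left out.

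Light was tested on tag counts with edgeR 4.0.16 (R 4.3.3), by TMM factors, filterByExpr and the quasi-likelihood test, and on mean tails with limma 3.58.1 for genes with at least 50 tags in each mouse, both over all genes with Benjamini-Hochberg adjustment at 0.05, with each mouse as 1 sample. Single libraries were compared by counts scaled to the total on genes (CPM), with an exact 95% Clopper-Pearson interval (scipy 1.17.1) and a limit of 1.5-fold with at least 20 reads over both libraries. A count of 0 was set to a floor of 3 reads in the medians of the lists and in the fold given for Fosb. Ratios of members, intervals and counts past 1.5-fold used the 0 itself. Intervals and floors cover counting error only. Of the lists, genes past the adjusted threshold were named in light (at most 6 per list), and elsewhere at most 3 per comparison with the largest ratio whose interval left out 1, from which those in the text come; Sap30 was named after its values were seen. The fits were run on simulated data as a check of the code only. The simulated tails had no shift between mice, which the real mice had, so this check does not cover the tail calls. Members, lists and tests were chosen with earlier results of these data known. Alternatives were DESeq2 1.42.0, other scalings, filters and tag minimums, a block on the mouse number, and leaving out each mouse.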

Additional observations from a re-analysis of the deposited data

Results flagged for a closer look

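The level of each member in dark and in light was examined, and the tail only where each of the 4 mice of a group had at least 20 tags. Of these 29 groups, 2 held a mouse far from the other 3, and chance alone marks about 1 in 20 groups. The level of Mxd4 in light mouse 2 was 14.05 CPM, while the other light mice were at 6.537, 6.843 and 7.296, so the gap made up 0.899 of the range, past Dixon's critical value for 4 samples. The mean tail of Mlx in dark mouse 4 was 82.18 nt, while the other dark mice were at 74, 74.08 and 74.4 nt, a gap of 0.951 of the range. Mxd4 rested on 9 to 28 tags a mouse, and neither gene was called in light.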

How the results depend on the processing

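The count of genes called in light by level was 128 (116 higher), 132 with DESeq2, 128 with RLE factors, 192 without a filter and 100 to 150 when 1 mouse was left out. The count by tail was 10, with 8 at 20 tags and 7 at 100 tags, where Mnt was not tested, 1 on the log2 scale, 1 with weights by tags, 3 relative to each mouse's median (chosen after seeing the data), and 1 to 21 without 1 mouse: 19 without dark mouse 1, 21 without light mouse 4, 2 without dark mouse 2 or light mouse 3, and 1 without dark mouse 3 or 4 or light mouse 2. List genes called in light went from 1 to 0 with DESeq2 and to 0 to 2 without 1 mouse. Mouse numbers did not pair the mice, since deviations of same-numbered mice correlated at 0.0311, -0.196, -0.0997 and -0.0892 in level, and at -0.113, 0.0301, -0.0935 and 0.0405 in tail. With the replicate block 113 genes were called by level, 1 by tail (not Mnt) and 1 of the lists. Members past 1.5-fold in culture RNA-seq went from 3 to 8 with RPM and to 12 by TAIL-seq tags, where Mycl in the miR-155 culture turned to 0.893. In culture RPFs they went from 5 to 3 with RPM (0 higher) and stayed at 5 when divided by the median. In the tissues they went from 11 to 14 with RPM and to 10 divided by the median. Of members past the TE cutoff, 10 of 25 were above the median, also with reads on genes and with the authors' log2 TE, and 1 of 2 at 30 RPM. Culture tails below the median went from 7 of 8 to 14 of 26 at 20 tags. With RPM, the share of genes past 1.5-fold that were higher went from 46.3% to 64.7% (glu/gly RNA), 42.7% to 68.3% (10 min KCl RNA), 35.5% to 3.86% (30 min KCl RNA, median log2 -0.56), 46.7% to 81% (miR-1 RNA), 27.3% to 8.09% (glu/gly RPF), 26.5% to 11.6% (10 min KCl RPF) and 56.5% to 67.3% (embryonic RNA). The cause of these shifts was not tested. Single values of members moved by less than the pooled SD between mice of a group in 96 of 96 alternatives in light level. The same held for 41 of 41 in light tail, where on the log2 scale only the sign was compared. That SD is not the SE given with the differences. Without 1 mouse the level difference of Mxd1 reached 0.493, from 0.287 ± 0.184 (SE) with all mice. In culture RPFs 71 of 72 stayed within the counting interval of the main value. Within those limits some turned. The light level of Mxd4 went from 0.064 to -0.173 without dark mouse 2 and -0.264 without light mouse 2. With RPM, the RPF ratios of Mlx at 10 min of KCl (1.01 to 0.893), Mnt after BDNF (1.01 to 0.968) and Mxd1 after glu/gly (1.13 to 0.994) turned. In the tissues 17 of 36 values and in TE 25 of 52 left the counting interval of the main value. RNA-seq depth limits the culture values, with Mnt at 1 to 12 reads.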
